A study of Mus musculus with 18 samples.

Results

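The annexin and S100 genes described here are 10 of the 23337 gene rows of an RNA-seq count table of invariant NKT (iNKT) cells, and were chosen by symbol from 2 families of calcium-binding proteins: Anxa1, Anxa2, Anxa4, Anxa5, Anxa6, Anxa7, S100a4, S100a6, S100a10 and S100a11. They were chosen with earlier values of these same libraries known, so the values below describe them and are not independent evidence of any direction. All 10 were among the 11118 genes tested. The libraries came from NKT1, NKT2 and NKT17 cells sorted from the thymus of WT mice, which are BALB/c, and of SKG mice, which carry a spontaneous point mutation of Zap70 on that background, with 3 libraries in each of the 6 groups. Zap70 encodes a kinase that acts directly downstream of the T cell receptor (TCR), and its mutant form in SKG mice weakens TCR signals in all T cells, so the mutation acted throughout thymic development and in other thymic cells too. No treatment was given, and the age of the mice and the number of animals behind each library are not given in the sources used here. NKT1 cells were gated as CD1d tetramer+ ICOS low CD49a+, NKT2 cells as tetramer+ CD49- Sdc-1- ICOS high CD4 high TCR beta high, and NKT17 cells as tetramer+ CD49- ICOS high Sdc-1+.

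Annexins are cytosolic proteins that bind acidic phospholipids of membranes when calcium rises, and they take part in membrane repair, vesicle traffic and the linking of membrane to the cytoskeleton. S100 proteins are small dimers with EF-hand calcium-binding loops that change shape on binding calcium and then grip a target protein. The families meet in defined complexes: S100a10, which no longer needs calcium, binds Anxa2 at the plasma membrane together with the scaffold Ahnak, and S100a11 binds Anxa1. In T cells, members of both families, S100a4 and Anxa1 among them, are known from effector and memory cells, and NKT1, NKT2 and NKT17 cells are the thymic counterparts of T cells that make IFN-gamma, IL-4 and IL-17.

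Depth was 4391029 to 8895917 counts per library and 11657 to 13071 genes had a count in a library. Levels are given as CPM, that is counts relative to library size, after TMM scaling, and a gene was called when its Benjamini-Hochberg adjusted p over all tested genes in edgeR's quasi-likelihood test was under 0.1 and its fold change at least 1.5. The NKT1 and NKT17 markers followed the labels. The summed level of 6 NKT1 markers was 3948 to 5607 CPM in NKT1 libraries and at most 424 CPM elsewhere, and that of 6 NKT17 markers, of which Sdc1 was used in the sort, was 2163 to 2318 CPM in NKT17 libraries and at most 13.9 CPM elsewhere. The 6 NKT2 markers, of which Icos was used in the sort, did so only in part. In WT mice they summed to 1910 to 2201 CPM in NKT2 and 1495 to 1628 CPM in NKT17 libraries. In SKG mice the 2 subsets overlapped, with 1499 to 1906 CPM in NKT2 and 1668 to 1801 CPM in NKT17 libraries. Zap70 was present in all libraries, at 716 to 852 CPM in WT and 453 to 565 CPM in SKG NKT17, 483 to 574 and 360 to 436 CPM in NKT2, and 516 to 605 and 421 to 529 CPM in NKT1 cells. Its point mutation cannot be checked from gene counts. Tokens in the sample titles (7_5, 7_10, 7_11 and 7_21) split the libraries unevenly: 7_5 marks WT libraries and 7_21 marks SKG libraries, and their meaning is not stated.

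The 4 S100 members lie on chromosome 3 in 2 neighbourhoods of the mouse S100 cluster, in build NCBIM37. S100a4 (90407692 to 90409967) and S100a6 (90416816 to 90418336) flank S100a5, and S100a11 (93324410 to 93330209) lies 28792 bases before S100a10 (93359002 to 93368565), all on the plus strand. The annexin genes are dispersed: Anxa1 on chromosome 19 (20447918 to 20465434, minus strand), Anxa2 on chromosome 9 (69301427 to 69339602, plus strand), Anxa4 on chromosome 6 (86686834 to 86743578, minus strand), Anxa5 on chromosome 3 (36347847 to 36374765, minus strand), Anxa6 on chromosome 11 (54792610 to 54846947, minus strand) and Anxa7 on chromosome 14 (21274483 to 21299355, minus strand). Counts were made over the exons of each gene. Some of these counts carry limits set by sequence. Of the S100a11 transcript, 98.2% of the bases match 3 other places in the genome at 95% identity or more, so its counts could be lost to or gained from copies and all its values are uncertain. Anxa4 has 294 bases, 11.1% of its transcript, that match repeats, Anxa2 overlaps a microRNA gene and the antisense gene Gm16144, and whether the counting used strand is not stated. The other 7 members share no stretch of 50 bases or more at that identity and overlap no gene.

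Anxa1, Anxa2, S100a4 and S100a6 spanned the widest ranges of level among the members, at least 10.4-fold between group means, so the 250 bases before their start sites are shown, each read in the direction of its gene from RefSeq promoters of build GRCm38.p6 (Anxa1 chr19:20390672-20390921, minus strand; Anxa2 chr9:69453433-69453682, S100a4 chr3:90603520-90603769 and S100a6 chr3:90612644-90612893, plus strand). Capitals mark matches to any of 7 short motifs searched on both strands: the TATA box (letters TATAAA), the CCAAT box, the GC box (letters GGGCGG), the AP-1 motif (letters TGANTCA), the CACCC box, the T-box motif (letters TCACACC) and the half-site of nuclear receptors (letters AGGTCA).
Anxa1: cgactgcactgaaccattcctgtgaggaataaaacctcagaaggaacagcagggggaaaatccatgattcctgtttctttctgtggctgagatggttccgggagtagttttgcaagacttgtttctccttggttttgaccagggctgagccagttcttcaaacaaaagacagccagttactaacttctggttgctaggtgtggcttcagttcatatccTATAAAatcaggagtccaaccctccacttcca
Anxa2: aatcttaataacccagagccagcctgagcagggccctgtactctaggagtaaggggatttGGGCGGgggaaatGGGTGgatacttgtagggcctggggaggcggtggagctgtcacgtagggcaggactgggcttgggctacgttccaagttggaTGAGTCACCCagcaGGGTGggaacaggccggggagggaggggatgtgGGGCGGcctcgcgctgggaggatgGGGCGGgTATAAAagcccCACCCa
S100a4: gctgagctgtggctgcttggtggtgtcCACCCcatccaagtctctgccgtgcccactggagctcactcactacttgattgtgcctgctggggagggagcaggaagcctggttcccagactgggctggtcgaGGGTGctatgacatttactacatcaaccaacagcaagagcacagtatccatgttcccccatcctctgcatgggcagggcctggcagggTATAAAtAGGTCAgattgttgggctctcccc
S100a6: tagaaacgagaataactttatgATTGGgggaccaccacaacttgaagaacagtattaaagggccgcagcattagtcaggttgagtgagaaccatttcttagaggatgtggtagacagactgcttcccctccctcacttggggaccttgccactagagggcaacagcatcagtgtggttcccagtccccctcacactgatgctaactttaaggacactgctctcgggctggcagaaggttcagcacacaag
The TATAAA box stands 32 bases before the start of Anxa1, 31 before that of S100a4 and 17 before that of Anxa2, and 12.4% of the 32851 RefSeq promoters hold it in a window of this length. Anxa2 also holds 3 GC boxes (32.7% of promoters hold at least 1) and an AP-1 match 95 bases before the start (6.7% of promoters), which overlaps a CACCC match. The S100a4 window holds an AGGTCA 1 base after its TATA box (14.0% of promoters), and the S100a6 window holds 1 CCAAT match on the minus strand (33.8% of promoters). The T-box letters were in no member's window (3.3% of promoters). Of the 10 members, 8 were matched in the promoter table, and Anxa6 and S100a10 were not. A match of letters is a description of the sequence and shows no binding.

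**Figure D1:**
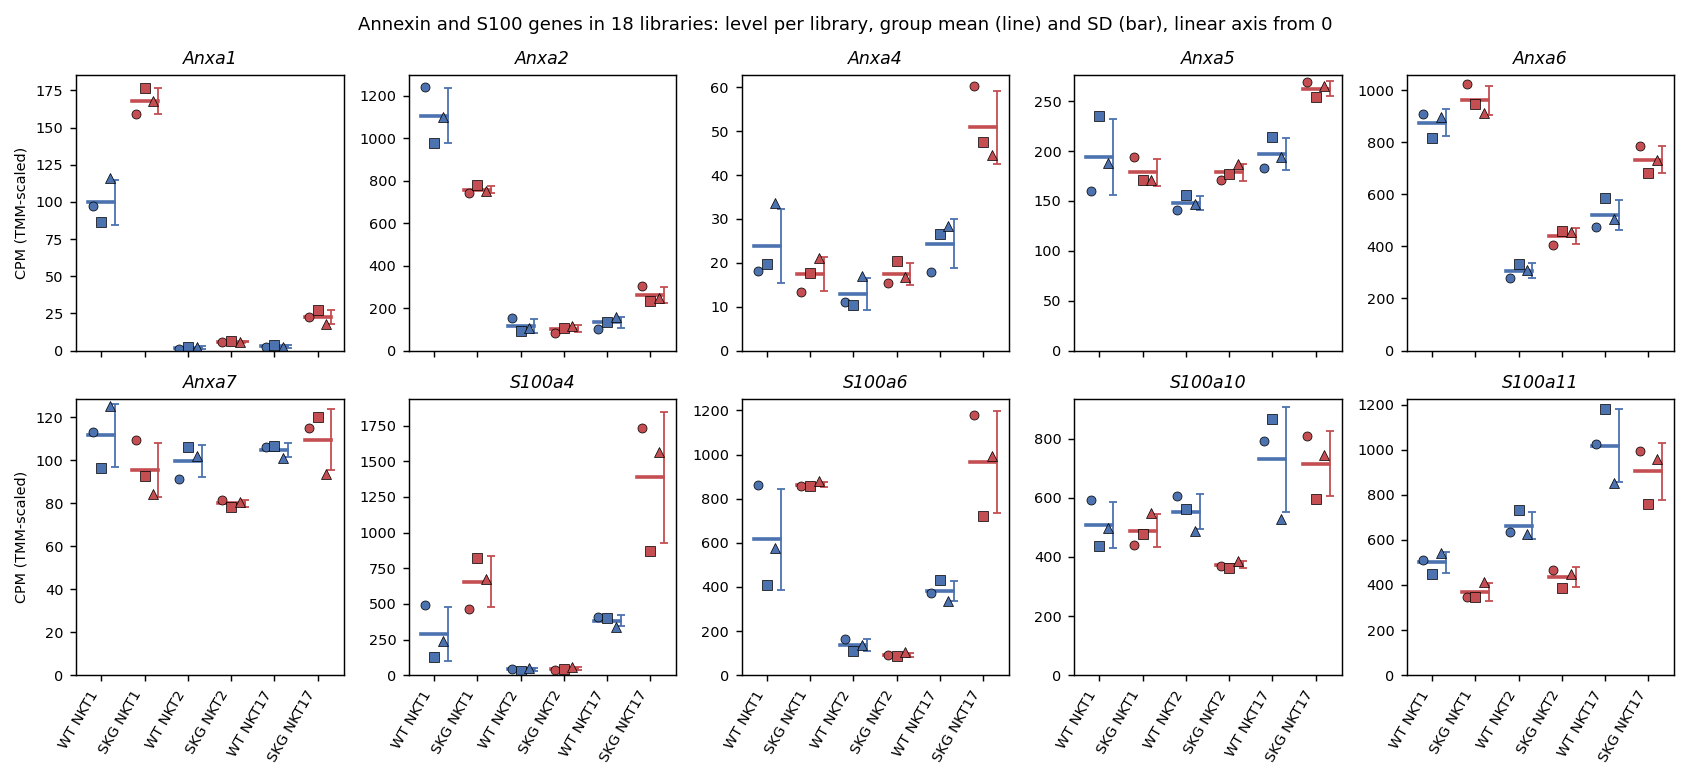
Level of each annexin and S100 gene in CPM (y axis, linear from 0, a scale per gene) in the 6 groups (x axis), with 1 symbol per library (circle, square and triangle for replicates 1, 2 and 3), a line at the group mean and a bar of 1 SD, WT in blue and SKG in red. Anxa1 and Anxa2 stand highest in NKT1 cells, S100a4 and S100a6 lowest in NKT2 cells, and Anxa1, Anxa2, Anxa4, S100a4 and S100a6 are higher in all SKG NKT17 libraries than in any WT NKT17 library.

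Within WT thymus, which asks how mature iNKT subsets differ, 6 of the 10 members were called above NKT2 cells in NKT1 cells and none below, where 13.7% of all tested genes were called higher and 13.7% lower. The 6 were Anxa1, Anxa2, Anxa4, Anxa6, S100a4 and S100a6. The median member log2 fold change was 1.20, against 0.00 over all genes. Against NKT17 cells, 4 members were called higher in NKT1 (Anxa1, Anxa2, Anxa6 and S100a6) and 1 lower (S100a11), with backgrounds of 11.2% higher and 13.5% lower. NKT17 cells in turn had 5 members called above NKT2 cells (Anxa4, Anxa6, S100a4, S100a6 and S100a11) and none below, with backgrounds of 11.0% and 8.97%. Other markers moved with the subsets. The 6 dividing-cell markers summed to 102 to 150 CPM in WT NKT1, 306 to 483 CPM in WT NKT2 and 110 to 243 CPM in WT NKT17 libraries. The 6 epithelium and stroma markers summed to 23.8 to 34.0, 95.1 to 135 and 70.6 to 77.9 CPM, with Col3a1 at 0 in all 18 libraries. In the SKG subsets the same sums were 85.2 to 176, 239 to 304 and 59.5 to 71.8 CPM for dividing cells and 14.9 to 16.1, 78.2 to 102 and 52.6 to 61.1 CPM for epithelium and stroma. The part of these in the annexin and S100 values was not tested.

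Anxa1, an annexin that glucocorticoids induce and that signals through formyl peptide receptors when released, had the widest span. Its 3 WT NKT1 libraries had 97.1, 86.3 and 116 CPM, the WT NKT2 libraries 0.818, 2.10 and 2.75 CPM and the WT NKT17 libraries 2.73, 4.00 and 2.20 CPM. Every NKT1 library thus lay far above every NKT2 and NKT17 library, while the last 2 groups overlapped and rested on 4 to 23 counts per library. The fold was 50.8 against NKT2 (log2 5.67, SE 0.27, edgeR quasi-likelihood test with Benjamini-Hochberg adjustment, adjusted p = 3.78e-13) and 33.7 against NKT17 (log2 5.07, SE 0.26, adjusted p = 5.98e-13). Between NKT17 and NKT2 the log2 difference of 0.59 (SE 0.34) did not pass the test.

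Anxa2, which bridges membranes to actin and, with S100a10, holds plasminogen at the cell surface, had 1243, 980 and 1100 CPM in WT NKT1 libraries. It had 154, 91.6 and 106 CPM in WT NKT2 and 104, 136 and 158 CPM in WT NKT17 libraries. Again NKT1 cells stood alone and the other two subsets overlapped. The folds of NKT1 cells were 9.47 over NKT2 (log2 3.24, SE 0.19, edgeR adjusted p = 6.57e-11) and 8.33 over NKT17 (log2 3.06, SE 0.19, adjusted p = 8.55e-11). Anxa6, the largest annexin and one found on plasma membrane and late endosomes, fell into 3 steps instead. It had 910, 816 and 898 CPM in NKT1, 474, 585 and 504 CPM in NKT17 and 277, 333 and 309 CPM in NKT2 libraries of WT mice. No pair of these groups overlapped, and NKT1 cells exceeded NKT17 cells 1.68-fold (log2 0.75, SE 0.10, edgeR adjusted p = 3.77e-06) and NKT17 cells exceeded NKT2 cells 1.70-fold (log2 0.77, SE 0.10, adjusted p = 4.53e-06).

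Anxa4, best known from secretory epithelium, was lower in NKT2 cells, with 12.8 ± 3.60 CPM (SD, n = 3) against 23.9 ± 8.52 in NKT1 and 24.3 ± 5.59 in NKT17 cells. It was called in NKT1 over NKT2 (log2 0.88, SE 0.27, edgeR adjusted p = 0.0159), a call lost without WT NKT1 replicate 3 (log2 0.54, adjusted p = 0.140), and in NKT17 over NKT2 (log2 0.92, SE 0.27, adjusted p = 0.0163). Anxa5, which binds phosphatidylserine and is used as a stain for dying cells, differed by less than 1.5-fold in all WT pairs and was called in none, but it passed the test, with separate libraries, in NKT1 (log2 0.39, SE 0.12, edgeR adjusted p = 0.0133) and NKT17 (log2 0.42, SE 0.12, adjusted p = 0.0122) over NKT2 cells. Anxa7, or synexin, which fuses secretory vesicles in test systems, had 99.6 to 111 CPM in the 3 WT group means, and no WT pair of its groups was separate.

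Among the S100 genes, S100a4 and S100a6 were lowest in NKT2 cells. S100a4, which loosens non-muscle myosin filaments, had 495, 126 and 238 CPM in WT NKT1 libraries, 46.6, 31.3 and 48.2 CPM in WT NKT2 libraries and 407, 401 and 337 CPM in WT NKT17 libraries. NKT2 cells were separate below both, and the WT NKT1 libraries spread 66.2% (CV), the most of any group among the 10 genes. The folds over NKT2 were 6.83 in NKT1 (log2 2.77, SE 0.46, edgeR adjusted p = 0.000416) and 9.08 in NKT17 (log2 3.18, SE 0.46, adjusted p = 0.000203). The value in NKT1 fell to log2 2.10 (adjusted p = 0.000779) without the first WT NKT1 library. The difference of NKT1 from NKT17 was not called (log2 -0.41, SE 0.41), but was without the first WT NKT1 library (log2 -1.07, adjusted p = 0.0463).

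S100a6, or calcyclin, which binds the ubiquitin ligase adaptor Cacybp, had 863, 408 and 578 CPM in WT NKT1, 162, 108 and 139 CPM in WT NKT2 and 375, 432 and 338 CPM in WT NKT17 libraries. It thus ordered the subsets as S100a4 did at the low end, with folds over NKT2 of 4.52 in NKT1 (log2 2.18, SE 0.24, edgeR adjusted p = 2.75e-06) and 2.80 in NKT17 (log2 1.48, SE 0.23, adjusted p = 0.000169). Its NKT1 and NKT17 libraries overlapped, and the call of 1.62-fold (log2 0.69, adjusted p = 0.0307) was lost without the first WT NKT1 library (log2 0.37, adjusted p = 0.173) and without the third WT NKT17 library.

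S100a10, or p11, had group means of 509 ± 78.7 CPM in NKT1, 553 ± 59.6 in NKT2 and 730 ± 177 in NKT17 cells of WT mice (SD, n = 3), and no WT pair was called. It passed the test under 1.5-fold, with overlapping libraries, for NKT1 over NKT17 (log2 -0.52, SE 0.16, edgeR adjusted p = 0.0145) and NKT17 over NKT2 (log2 0.40, SE 0.15, adjusted p = 0.0684). The first of these was called without the first WT NKT1 or the third WT NKT17 library. S100a11 had 513, 447 and 540 CPM in NKT1, 633, 731 and 624 CPM in NKT2 and 1023, 1179 and 853 CPM in NKT17 libraries. NKT1 cells were lowest and NKT17 cells highest, with no overlap. NKT17 cells exceeded NKT1 cells 2.04-fold (log2 for NKT1 over NKT17 -1.03, SE 0.13, edgeR adjusted p = 1.24e-06) and NKT2 cells 1.54-fold (log2 0.62, SE 0.13, adjusted p = 0.00085). The last call fell under the fold minimum without the second WT NKT17 library, without the third WT NKT2 library and with upper-quartile scaling, where its log2 values were 0.50 to 0.56.

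**Figure D2:**
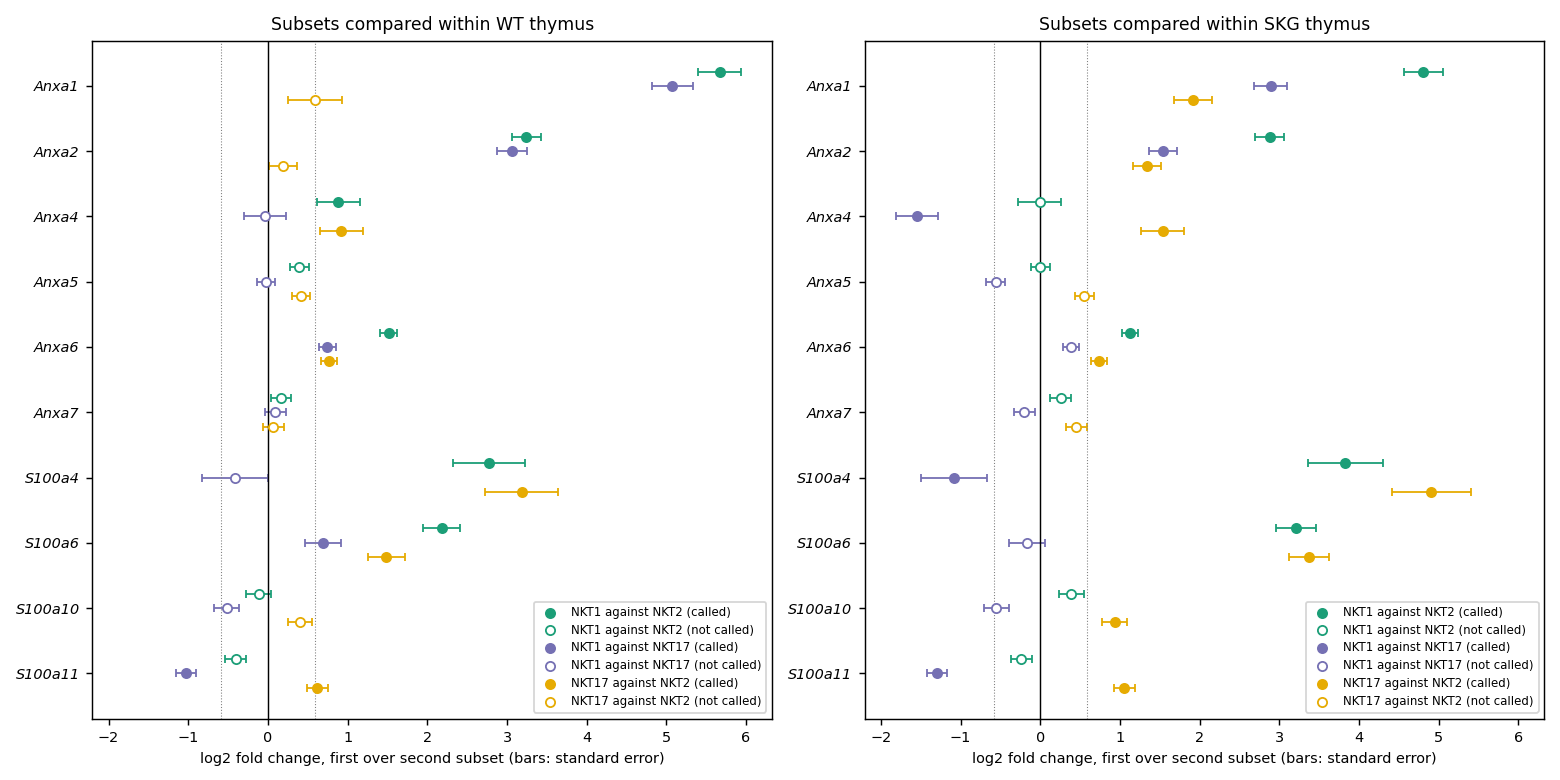
Log2 fold change of each annexin and S100 gene (y axis) for NKT1 over NKT2, NKT1 over NKT17 and NKT17 over NKT2 (x axis, bars of 1 standard error) within WT (left) and SKG thymus (right); filled points were called and dotted lines mark a fold of 1.5. For NKT1 over NKT17, Anxa1 goes from 5.07 in WT to 2.89 in SKG. For NKT17 over NKT2, all 10 genes lie above 0 in WT and in SKG alike.

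The same subset pairs were then compared within SKG thymus. NKT1 over NKT2 cells had 5 members called higher (Anxa1, Anxa2, Anxa6, S100a4 and S100a6) and none lower, with backgrounds of 10.0% and 8.63%. NKT17 over NKT2 cells had 8 called higher, all but Anxa5 and Anxa7, and none lower, with backgrounds of 10.5% and 8.27%. The median log2 fold change was 1.20, against 0.01 over all genes. All 10 members had SKG NKT17 libraries that were separate above those of SKG NKT2. The share of all genes separate in this way is not given here, so that count has no background. NKT1 against NKT17 cells had 2 called higher (Anxa1 and Anxa2) and 3 lower (Anxa4, S100a4 and S100a11), with backgrounds of 10.2% and 12.5%.

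In SKG mice NKT17 cells held the highest S100a4 of any group, with 1732, 868 and 1563 CPM. SKG NKT2 libraries had 39.0, 41.7 and 57.3 CPM, and SKG NKT1 libraries 466, 823 and 677 CPM. The 3 groups did not overlap, and NKT17 cells exceeded NKT2 cells by 4.91 on the log2 scale (SE 0.49, edgeR adjusted p = 8.16e-06). The lower level in NKT1 than NKT17 cells was called (log2 -1.08, SE 0.42, adjusted p = 0.0756), but it was lost with no filter on low counts and without replicate 1 or 3 of either group (adjusted p up to 0.231). S100a6 had 1181, 724 and 994 CPM in SKG NKT17, 858, 856 and 879 CPM in SKG NKT1 and 90.5, 85.6 and 103 CPM in SKG NKT2 libraries. It was 10.4-fold higher in NKT17 than in NKT2 cells (log2 3.37, SE 0.25, edgeR adjusted p = 5.2e-08) and 9.27-fold higher in NKT1 than in NKT2 cells (log2 3.21, SE 0.25, adjusted p = 7.6e-08).

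Among annexins, SKG NKT1 cells still held the most Anxa1 and Anxa2, 7.42-fold (log2 2.89, SE 0.21, edgeR adjusted p = 3.31e-10) and 2.90-fold (log2 1.54, SE 0.18, adjusted p = 1.02e-06) above SKG NKT17 cells. NKT17 cells were in turn above NKT2 cells, 3.78-fold for Anxa1 (log2 1.92, SE 0.24, adjusted p = 1.9e-06) and 2.53-fold for Anxa2 (log2 1.34, SE 0.18, adjusted p = 1.01e-05). Anxa4 was highest in SKG NKT17 cells, 2.92-fold above SKG NKT1 (log2 for NKT1 over NKT17 -1.55, SE 0.27, adjusted p = 0.000106) and 2.91-fold above SKG NKT2 cells (log2 1.54, SE 0.27, adjusted p = 0.000141). S100a10 and S100a11 were also higher in SKG NKT17 than SKG NKT2 cells, 1.92-fold (log2 0.94, SE 0.16, edgeR adjusted p = 0.000107) and 2.08-fold (log2 1.06, SE 0.13, adjusted p = 1.55e-06).

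SKG and WT cells of the same subset were compared next, which asks what weaker Zap70 signalling goes with inside each subset. In a sorted bulk sample a change in RNA per cell and a change in the mix of cells within the gate cannot be told apart. The largest set of calls was in NKT17 cells: 5 of 10 members were higher in SKG (Anxa1, Anxa2, Anxa4, S100a4 and S100a6) and none lower, where 3.83% of all tested genes were called higher and 4.54% lower. Anxa5 and Anxa6 passed the test below the fold minimum, and the median log2 fold change was 0.73, against 0.00 over all genes. All SKG NKT17 libraries lay above all WT NKT17 libraries for 7 members, a count given without the share over all genes. In NKT2 cells 1 member was higher (Anxa1) and 1 lower (S100a11), with backgrounds of 3.90% and 4.05%. In NKT1 cells Anxa1 alone was called by edgeR, higher in SKG, while DESeq2 also called S100a4, with backgrounds of 1.46% higher and 1.82% lower.

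In NKT17 cells, Anxa1 had 22.4, 27.6 and 17.8 CPM in SKG libraries against the 2.20 to 4.00 CPM of WT libraries given above. All SKG libraries were far above the highest WT library, and the fold was 7.64 (log2 2.93, SE 0.26, edgeR adjusted p = 8.54e-08). S100a4 rose 3.64-fold (log2 1.86, SE 0.42, edgeR adjusted p = 0.0157), and its lowest SKG library (868 CPM) was above its highest WT library (407 CPM). S100a6 rose 2.53-fold (log2 1.34, SE 0.23, adjusted p = 0.00125), again without overlap. Anxa2 had 303, 233 and 248 CPM in SKG NKT17 libraries, all above the 158 CPM of the highest WT library, and rose 1.97-fold (log2 0.97, SE 0.18, edgeR adjusted p = 0.00103). Anxa4 had 60.3, 47.6 and 44.7 CPM in SKG NKT17 against 18.0, 26.6 and 28.4 CPM in WT NKT17 libraries, a rise of 2.09-fold (log2 1.06, SE 0.26, adjusted p = 0.0114). All 5 calls remained under each of 16 alternatives, which include leaving out each of the 6 libraries.

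Smaller values completed the NKT17 comparison. Anxa6 had a log2 difference of 0.49 (SE 0.10, edgeR adjusted p = 0.00242) and Anxa5 of 0.41 (SE 0.12, adjusted p = 0.0283), both with separate libraries and both under 1.5-fold. Anxa7, S100a10 and S100a11 overlapped between genotypes, with log2 differences of 0.07 (95% interval -0.18 to 0.32), -0.03 (-0.33 to 0.28) and -0.17 (-0.42 to 0.08). The partner of Anxa1, S100a11, and the partner of Anxa2, S100a10, were therefore not called where both annexins were. Within the title tokens that hold both genotypes, the log2 ratio of the SKG NKT17 library over the WT NKT17 library was 2.48 and 3.65 for Anxa1, 1.15 and 0.56 for Anxa2, 1.18 and 0.75 for Anxa4, 2.11 and 1.36 for S100a4 and 1.45 and 1.10 for S100a6, in 7_10 and 7_11. These libraries are part of the full comparison. For these genes every SKG NKT17 library lay above every WT NKT17 library, so the sign of each ratio was fixed in advance.

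Other genes moved with the NKT17 genotypes. The summed level of 5 B cell markers was 24.8 to 40.7 CPM in SKG NKT17 and 7.82 to 11.1 CPM in WT NKT17 libraries, with Pax5 at 0 in all 18 libraries. The 6 double-positive thymocyte markers summed to 14.3 to 47.5 CPM in SKG NKT17 and 5.27 to 12.5 CPM in WT NKT17 libraries, with Rag1, Rag2 and Dntt at 0 in both groups. The 6 dividing-cell markers went the other way, with 59.5 to 71.8 CPM in SKG NKT17 and 110 to 243 CPM in WT NKT17 libraries. So did the 6 NKT1 markers, with 161 to 221 CPM in SKG NKT17 and 283 to 324 CPM in WT NKT17 libraries. Their part in the NKT17 values was not tested either. The 7 myeloid markers summed to 0 to 4.39 CPM in SKG NKT17 and 0 to 3.43 CPM in WT NKT17 libraries. Among them S100a8 and S100a9 were at 0 in all 18 libraries, and a part of myeloid cells was not tested.

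In NKT2 cells, Anxa1 had 5.51, 6.26 and 6.10 CPM in SKG against 0.818, 2.10 and 2.75 CPM in WT libraries. The groups were separate, on 25 to 38 and 4 to 17 counts per library, and the fold was 3.05 (log2 1.61, SE 0.31, edgeR adjusted p = 0.0013). S100a11 had 468, 385 and 450 CPM in SKG NKT2 libraries, all below the 624 CPM of the lowest WT library, and fell 1.53-fold (log2 -0.61, SE 0.13, edgeR adjusted p = 0.00304), just past the fold minimum. That call was lost without the second WT or the second SKG library, where the log2 value was -0.53 each time. S100a10 (log2 -0.56, SE 0.16, adjusted p = 0.0268) and Anxa6 (log2 0.52, SE 0.10, adjusted p = 0.00143) passed the test under 1.5-fold. Anxa2, at 117 ± 32.7 CPM in WT and 103 ± 16.6 CPM in SKG NKT2 cells (SD, n = 3), overlapped (log2 -0.18, 95% interval -0.53 to 0.17). Beside these values, the dividing-cell sum was 239 to 304 CPM in SKG against 306 to 483 CPM in WT NKT2 libraries and the double-positive thymocyte sum 4.18 to 5.62 against 1.64 to 2.27 CPM, and their part was not tested.

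In NKT1 cells, Anxa1 had 159, 177 and 168 CPM in SKG against 97.1, 86.3 and 116 CPM in WT libraries, a separate and called rise of 1.68-fold (log2 0.75, SE 0.19, edgeR adjusted p = 0.0367). The call was lost without the second WT library, the second SKG library or the third SKG library (adjusted p 0.00282 to 0.129 over 16 alternatives). Anxa2 had 745, 779 and 754 CPM in SKG NKT1 libraries, below every WT NKT1 library, but its log2 difference of -0.55 (SE 0.17) had an adjusted p of 0.109 in edgeR. S100a4 had 466, 823 and 677 CPM in SKG and 495, 126 and 238 CPM in WT NKT1 libraries, and the groups overlapped through the first WT library (log2 1.19, SE 0.42, edgeR adjusted p = 0.201). S100a4 was called by DESeq2 (adjusted p = 0.0708). Without that library S100a4 was called by edgeR (log2 1.86, adjusted p = 0.0212) and so was S100a6 (log2 0.82, adjusted p = 0.0290). S100a11 was separate below in SKG NKT1 cells (log2 -0.44, SE 0.13, adjusted p = 0.0734) at under 1.5-fold. The NKT1 marker sum was 3948 to 4390 CPM in SKG against 4808 to 5607 CPM in WT NKT1 libraries. The epithelium and stroma sum was 14.9 to 16.1 against 23.8 to 34.0 CPM and the B cell sum 2.95 to 5.95 against 1.24 to 2.41 CPM. The part of these sums was not tested.

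**Figure D3:**
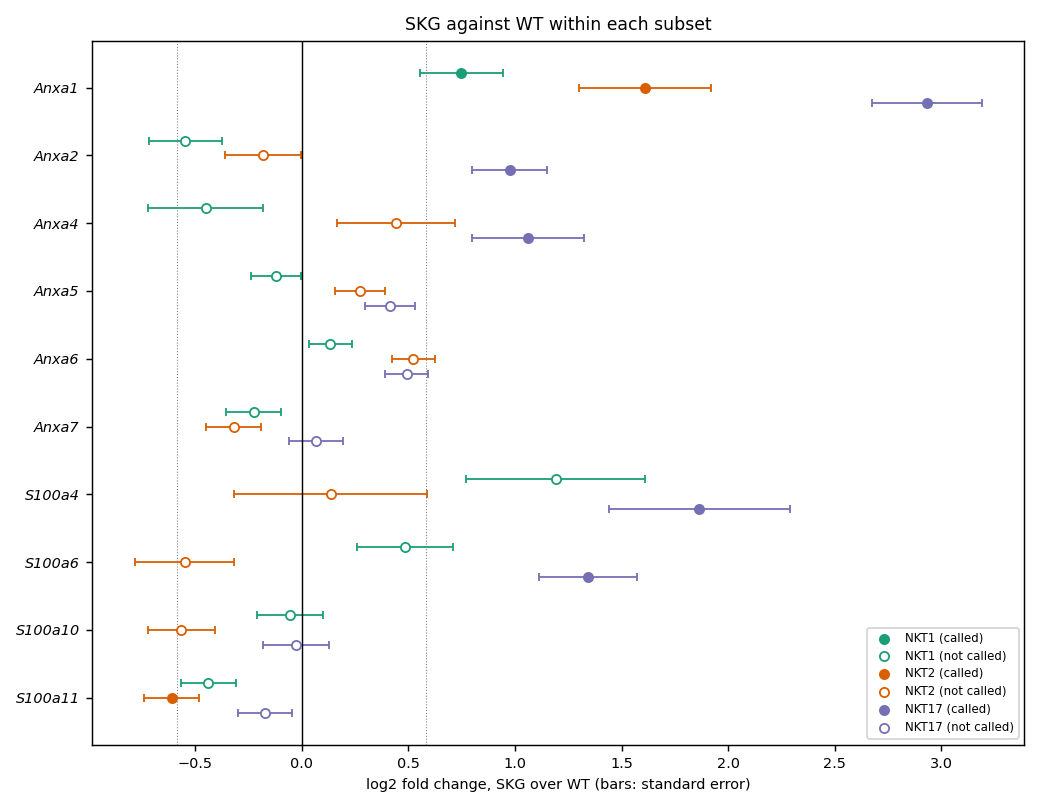
Log2 fold change of SKG over WT (x axis, bars of 1 standard error) for each annexin and S100 gene (y axis) in NKT1, NKT2 and NKT17 cells; filled points were called and dotted lines mark a fold of 1.5. Anxa1 lies at 0.75, 1.61 and 2.93 in the 3 subsets, while Anxa2 lies at -0.55, -0.18 and 0.97.

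Whether the SKG effect differed between subsets was tested directly. Between NKT17 and NKT1 cells, 3 members were called, Anxa1 (log2 difference of differences 2.18, SE 0.32, edgeR adjusted p = 0.000266), Anxa2 (1.52, SE 0.24, adjusted p = 0.00107) and Anxa4 (1.51, SE 0.38, adjusted p = 0.0295), where 4.17% of all genes were called in either direction. All 10 members had a positive value, a count given without the share over all genes. That of S100a10 (0.03, SE 0.22) took either sign among the alternatives. Anxa2 therefore had a larger SKG effect in NKT17 than in NKT1 cells, and its NKT1 value, below 0, was not called. The Anxa4 difference was lost without the first SKG NKT1 or the first SKG NKT17 library (adjusted p up to 0.105). Between NKT17 and NKT2 cells, Anxa2 (1.16, SE 0.25, adjusted p = 0.0191) and S100a6 (1.89, SE 0.33, adjusted p = 0.00614) were called, with a background of 2.19%. Between NKT2 and NKT1 cells 0 of 10 were called by edgeR, with a background of 3.87%, while 6 had an unadjusted p under 0.05 and S100a6 (log2 -1.04, adjusted p = 0.125) was called by DESeq2 and by edgeR with a replicate block by title token (log2 -1.07, adjusted p = 0.0728). S100a4, whose effects were 1.19, 0.14 and 1.86 in NKT1, NKT2 and NKT17 cells, was called by edgeR's main test in none of these differences; for NKT17 minus NKT2 (log2 1.73, SE 0.61, adjusted p = 0.285) it was called by DESeq2 and by edgeR with only the libraries compared.

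The 10 genes together took 0.550% ± 0.0924 of all counts in SKG NKT17 libraries (SD, n = 3) and 0.356% ± 0.0318 in WT NKT17 libraries. The share was 0.405% ± 0.0587 in WT NKT1 and 0.439% ± 0.0186 in SKG NKT1 libraries. NKT2 cells had the least, 0.212% ± 0.00678 in WT and 0.184% ± 0.00754 in SKG libraries. Such a share follows the most abundant members, and it is summed over genes of different length.

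Levels of different members can be compared only per length, and here as CPM per kilobase of annotated exon. S100a11 had the highest mean in WT NKT1 (978), WT NKT2 (1297), WT NKT17 (1993) and SKG NKT2 cells (850), a value that includes any reads of its copies. In WT NKT1 cells its spread met that of S100a6 (978 ± 94.2 and 857 ± 320, SD, n = 3). S100a4 had the highest mean in SKG NKT17 cells, 2364 ± 780 CPM per kilobase against 650 ± 65.4 in WT NKT17 cells, but was not separated by its spread from S100a11 in SKG NKT17 cells (1770 ± 247). Nor were S100a6 (1202 ± 17.3) and S100a4 (1117 ± 306) separated in SKG NKT1 cells. The lowest was Anxa4 in NKT1 cells, 5.13 in WT and 3.75 in SKG, and Anxa1 in the 4 NKT2 and NKT17 groups, 0.724 to 8.66. With the longest transcript in place of all exons, 50 of 60 ranks stayed the same and none moved by more than 1.

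Across the 6 groups, the ratio of the highest to the lowest group mean was 88.9 for Anxa1, 33.0 for S100a4, 10.8 for Anxa2 and 10.4 for S100a6. It was 3.97 for Anxa4, 3.13 for Anxa6, 2.76 for S100a11, 1.95 for S100a10, 1.78 for Anxa5 and least for Anxa7. Anxa6 was the member whose 6 groups formed a ladder with no overlap of neighbours, from SKG NKT1 down through WT NKT1, SKG NKT17, WT NKT17 and SKG NKT2 to WT NKT2. Its top step was slight, with 911 CPM in the lowest SKG NKT1 and 910 CPM in the highest WT NKT1 library, and was not called (log2 0.13, edgeR adjusted p = 0.621). With upper-quartile scaling 2 other neighbour pairs overlapped. Anxa1 descended from SKG NKT1 through WT NKT1, SKG NKT17, SKG NKT2 and WT NKT17 to WT NKT2, and the last pair alone overlapped. For Anxa4, Anxa7 and S100a10, 4 of 5 neighbour pairs overlapped. By group means, SKG was above WT in all 3 subsets for Anxa1, Anxa6 and S100a4, and below WT in all 3 for S100a10 and S100a11. Some of these directions were not firm. The log2 values of S100a10 in NKT1 (-0.06) and NKT17 cells (-0.03) and of S100a4 in NKT2 cells (0.14) took either sign among the alternatives. Of these differences, those of Anxa1 in all 3 subsets, of S100a4 in NKT17 cells and of S100a11 in NKT2 cells were called.

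**Figure D4:**
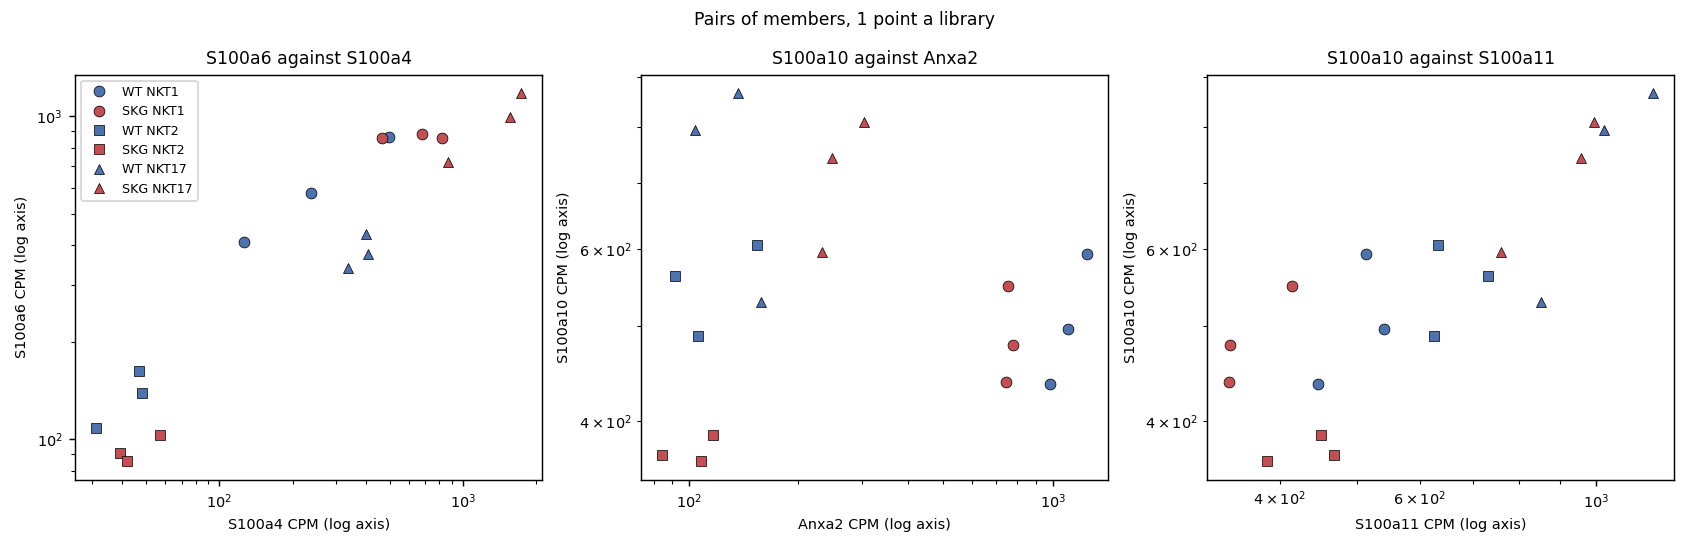
Levels of pairs of genes in the 18 libraries (CPM, log axes), with colour for genotype and symbol for subset: S100a6 against S100a4 (left), S100a10 against Anxa2 (middle) and S100a10 against S100a11 (right). S100a4 and S100a6 follow each other (r = 0.95), whereas Anxa2 and S100a10 do not (r = -0.04).

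Over the 18 libraries, which share subset, genotype and depth, correlations of log2 CPM are given as a description. The neighbouring genes S100a4 and S100a6 had r = 0.95, and S100a10 and S100a11 had r = 0.84. Anxa1 had r = 0.93 with Anxa6 and 0.92 with Anxa2. Partners at the protein level were not alike in RNA level: Anxa2 and S100a10 had r = -0.04 and Anxa1 and S100a11 had r = -0.53. The gene most like Anxa1 among all tested genes was Ahnak (0.98), the giant scaffold of the Anxa2 and S100a10 complex, followed by Sgk1 and C630004H02Rik (both 0.98). The next of kin were Hopx, Mcoln2 and Mapre2 for Anxa2 (each 0.97), Anxa11, Susd3 and Glipr2 for Anxa6 (each 0.98), and S100a6, Edaradd and Lgals1 for S100a4 (0.94 to 0.95). S100a6 was most like Vim (0.97), S100a4 and Ccdc92 (each 0.95). Lower values were found for Anxa4 (Serpinb6a, Dnase1l1 and Plau, 0.88 to 0.89), Anxa5 (Dnase1l1, Cnr2 and 8430419L09Rik, 0.85 to 0.91), S100a10 (Sdf2l1, Ucp2 and Eif4ebp1, 0.89 to 0.91), S100a11 (Fam167a, Myo1e and Maged1, 0.92 to 0.93) and Anxa7 (Tuba1a, Ctnna1 and Pppde2, 0.78 to 0.82). Of these 30, 25 were also among the top 3 with a prior count of 0.5, and 9 were with Spearman's coefficient.

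Of the 18 other annexin and S100 genes, 4 passed the expression filter: Anxa11, S100a1, S100a3 and S100a13. Of these 4, none was called between SKG and WT in any subset by edgeR, while 1, 1 and 2 had an unadjusted p under 0.05 in NKT1, NKT2 and NKT17 cells. Of all tested genes, 1.46%, 3.90% and 3.83% were called higher there and 1.82%, 4.05% and 4.54% lower, so 0 calls among 4 genes lies near these shares. All 4 had a value above 0 in NKT17 cells, with a median log2 of 0.52 against 0.00 over all genes. In NKT1 cells all 4 were above 0 too, and in NKT2 cells 2 were above and 2 below. Anxa11, an annexin of RNA granules and endosomes, had 185 ± 14.3 CPM in WT NKT1 and 102 ± 8.50 CPM in WT NKT2 cells (SD, n = 3) and was higher in NKT1 cells in WT (log2 0.86, SE 0.10, edgeR adjusted p = 8.95e-07) and SKG (log2 0.63, SE 0.10, adjusted p = 6.94e-05). S100a1 was higher in NKT1 (log2 1.83, SE 0.50, adjusted p = 0.0101) and in NKT17 (log2 1.65, SE 0.50, adjusted p = 0.0199) than in NKT2 cells of SKG mice, and S100a13 in NKT17 over NKT2 cells of SKG mice (log2 0.79, SE 0.21, adjusted p = 0.0103).

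S100a3, which starts the tandem in front of S100a4 with 1067 bases between them, went the other way. Its counts were 0, 0 and 3 in WT NKT1 libraries, 20, 35 and 42 in WT NKT2 libraries and 33, 10 and 23 in WT NKT17 libraries. Taken against 3 counts per library at the depth of the WT NKT1 libraries, NKT1 cells were at least 11.6-fold lower than NKT2 and at least 7.73-fold lower than NKT17 cells, and such floors cover counting error only. NKT1 cells of SKG mice were 3.68-fold lower in S100a3 than SKG NKT17 cells (log2 -1.88, SE 0.71, edgeR adjusted p = 0.0533).

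Of 22 genes of partners and settings of these proteins, 16 were tested. In SKG against WT, 4 were called higher and 1 lower in NKT17 cells (all genes 3.83% and 4.54%), 3 higher and 1 lower in NKT2 cells (3.90% and 4.05%) and none in NKT1 cells (1.46% and 1.82%), where 1 had an unadjusted p under 0.05. Ahnak rose with the called members in NKT17 cells. It had 232 ± 37.1 CPM in SKG and 79.8 ± 9.80 CPM in WT NKT17 cells (SD, n = 3), a rise of 2.91-fold (log2 1.54, SE 0.14, edgeR adjusted p = 1.19e-07). In NKT2 cells it rose 1.64-fold (log2 0.71, SE 0.14, adjusted p = 0.00157), whereas 5 of the 10 members had a value above 0 there and 5 below. The SKG effect on Ahnak was larger in NKT17 than in NKT1 cells (log2 1.18, SE 0.19, adjusted p = 0.000769). The intermediate filament gene Vim (log2 0.73, SE 0.15, adjusted p = 0.00257), the actin gene Actb (log2 0.60, SE 0.12, adjusted p = 0.00215) and Sugt1, an S100a6-binding co-chaperone (log2 0.75, SE 0.13, adjusted p = 0.000627), also rose in SKG NKT17 cells. In SKG NKT2 cells Sugt1 (log2 0.73, SE 0.14) and the calpain gene Capn2 (log2 0.60, SE 0.12, edgeR adjusted p = 0.00239) rose as well.

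Between subsets of WT mice, the partner list had 5 genes called higher and 1 lower in NKT1 against NKT2 cells (all genes 13.7% and 13.7%), 3 and 1 in NKT1 against NKT17 (11.2% and 13.5%), and 3 and 1 in NKT17 against NKT2 (11.0% and 8.97%). In SKG mice these counts were 4 and 1 (10.0% and 8.63%), 2 and 1 (10.2% and 12.5%), and 4 and 2 (10.5% and 8.27%). With 16 genes tested, single calls in a direction are near or under these shares. Ahnak was 6.23-fold higher in WT NKT1 than NKT2 cells (log2 2.64, SE 0.14, edgeR adjusted p = 2.96e-12) and 6.07-fold higher than in WT NKT17 cells (log2 2.60, SE 0.14, adjusted p = 2.3e-12), an order shared with Anxa1 and Anxa2. Capn2, Actb and Vim were among the others higher in WT NKT1 than NKT2 cells. Plaur, the urokinase receptor of the plasminogen system, was highest in NKT2 cells, with 111, 178 and 204 counts in WT NKT2 libraries and 0, 3 and 0 counts in WT NKT1 libraries, at least 59.2-fold lower in NKT1 cells. In SKG NKT2 cells it had 25, 19 and 46 counts and was lower than in WT NKT2 cells (log2 -2.38, SE 0.63, edgeR adjusted p = 0.0234). It was also the gene called lower in SKG NKT17 cells, with 0, 0 and 1 counts against 0, 16 and 6 counts in WT NKT17 libraries, which overlap. Cacybp, the S100a6-binding gene, was lower in SKG NKT17 than SKG NKT2 cells (log2 -0.78, SE 0.16, adjusted p = 0.000649), and Myh9, the myosin target of S100a4, was higher in SKG NKT1 than SKG NKT2 cells (log2 0.69, SE 0.14, adjusted p = 0.000812).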

How the data were processed

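RNA was measured in 18 libraries of 6 groups. The counts were deposited as whole reads per gene symbol, with no normalisation. Per the study's methods, poly-A RNA was made into full-length cDNA and tagmented, single-end reads were cleared of rRNA, tRNA, spike-in and adapter sequence, and the rest was aligned with TopHat 1.4.1 to mm9, filtered for low complexity and counted with htseq-count in union mode. The submitters' processing notes list Bowtie 1.0.0, TopHat 1.4.1, HTSeq 0.7.1 and the builds hg19 and mm10, so the build of the counts is unsettled, and the annotation and strand setting are not given in the sources used here. Columns of no listed sample, 2 in the table, were not used.

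Here, edgeR 4.0.16 (R 4.3.3) kept 11118 of 15582 genes with a count (filterByExpr), scaled by TMM (factors 0.928 to 1.07) and fitted a robust quasi-likelihood model to the 6 groups (12 residual degrees of freedom, common biological coefficient of variation 21.1%), with two-sided tests. The SE was the absolute log2 fold change over the square root of F. Calls used the study's thresholds, an adjusted p under 0.1 and a fold of 1.5. The pipeline was tested on simulated data. Alternatives were DESeq2 1.42.0, other scalings, filters, thresholds, a replicate block and leaving out each library. Nothing in the labels ties a library to its own animals beyond independent experiments, so p-values measure the spread between these libraries, which differed by more than sampling noise. PCR copies are counted as reads, and depth limits genes of few counts, such as Anxa1 outside NKT1 cells, S100a3 and Plaur. Positions come from GENCODE M1 (NCBIM37), copies from blastn 2.17.0 (matches of 50 bases or more at 95% identity), and promoters from RefSeq.

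The members and lists were chosen with earlier results of these data known. Named were all members, genes of the 2 other lists called in a comparison, and for each member the 3 genes with the highest Pearson correlation of log2 CPM (prior count 2); markers appear as sums, except those at 0. Values of some listed genes are not reported here.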

Additional observations from a re-analysis of the deposited data

Results flagged for a closer look

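For 5 values the SKG effect was called as different between subsets by edgeR's test of the difference, on the log2 scale with Benjamini-Hochberg adjustment over all genes. The effect on Anxa1 was larger in NKT17 than in NKT1 cells by 2.18 (SE 0.32, adjusted p = 0.000266), the effects being 2.93 and 0.75, both called. The effect on Anxa2 was larger in NKT17 than in NKT1 cells by 1.52 (SE 0.24, adjusted p = 0.00107) and than in NKT2 cells by 1.16 (SE 0.25, adjusted p = 0.0191). Its SKG NKT17 libraries all lay above, and its SKG NKT1 libraries all below, those of WT mice. The effect on Anxa4 was larger in NKT17 than in NKT1 cells by 1.51 (SE 0.38, adjusted p = 0.0295). The effect on S100a6 was larger in NKT17 than in NKT2 cells by 1.89 (SE 0.33, adjusted p = 0.00614), with values of 1.34 and -0.55, the last not called. For Anxa5 the difference between NKT17 and NKT1 cells, 0.53 (SE 0.17, adjusted p = 0.0925), passed the test but not the fold minimum. These differences share the NKT17 libraries and are not independent of one another. With 3 libraries in a group, single libraries were not tested for standing apart.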

How the results depend on the processing

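Each of 120 member values was recomputed under 16 alternatives (22 for differences between subsets), 2100 values in all. Of these, 2038 kept their side of the thresholds, 19 lost a call, 43 gained one and 0 reversed a call, while 33 uncalled values took another sign. Of 47 calls, 40 held under all alternatives. Library sizes without the members were an alternative chosen after seeing the data. Most at risk was SKG against WT in NKT1 cells, where the 1 call became 2 with DESeq2, 2 with no fold minimum, and 0 to 3 when a library was left out: 3 without the first WT library, and 0 without the second WT, the second SKG or the third SKG library. In NKT2 cells the 2 calls became 4 with no fold minimum and 1 to 3 when a library was left out, 1 without the second SKG library. With no fold minimum, SKG NKT1 against NKT17 cells went from 5 to 8 calls. For the SKG effect in NKT2 minus that in NKT1 cells, the 0 calls became 1 with DESeq2, 1 with the replicate block and 0 to 1 when a library was left out, 1 without the first WT NKT1 or the second WT NKT2 library, in each case S100a6. For NKT17 minus NKT2 the 2 calls became 4 with DESeq2, with Anxa1 and S100a4 added. The causes were not tested, beyond the looser rule where the minimum was dropped.

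The replicate block by title token changed 1 member call, that of S100a6 for NKT2 minus NKT1 (log2 -1.07, adjusted p = 0.0728 in edgeR, against -1.04 and 0.125 without the block). Tokens were not taken as pairs. Deviations from group means of same-token libraries of 1 genotype had r of -0.06 to 0.35, over 0.1 in 12 of 18 pairs. Those of same-token libraries across genotypes were over 0.1 in 0 of 18 pairs, while 16 of 18 libraries were most alike with their own token. The likeness thus lay within token and genotype, whereas the block gave both genotypes of a token 1 shared term. A pairing of subsets within token and genotype was not tested, and the subset comparisons treat their libraries as unpaired. Upper-quartile scaling moved the median of all genes by -0.10 in NKT1 against NKT2 cells of WT mice and by less elsewhere.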
